A study of Mus musculus with 12 samples.

Results

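Copper and platinum transport was described here through 9 genes. Among them were the copper importer Slc31a1, its paralogue Slc31a2, the copper chaperones Atox1 and Ccs, and the copper pumps Atp7a and Atp7b. The others were the organic cation exporter Slc47a1 and the metallothioneins Mt1 and Mt2. The genes were taken by symbol from a table of 24421 gene symbols, and all 9 were found. RNA sequencing had been done on tumour tissue of the 425-ICC mouse model of intrahepatic cholangiocarcinoma, a bile duct cancer arising within the liver, on day 8 of treatment. Combination tumours received GC (read here as gemcitabine plus cisplatin, since the labels give the abbreviation) together with dual immune checkpoint blockade, which the series title names as CTLA-4 blockade and anti-PD1 therapy. GC tumours received that chemotherapy alone, ICB tumours the dual blockade alone, and Control tumours control IgG. Each group held 3 samples, and the labels give no strain, sex, age or link of samples to animals. The p-values therefore describe how these samples scatter, which may be technical in part.

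Copper enters cells through CTR1, the product of Slc31a1, and chaperones hand it on. ATOX1 carries it to the pumps ATP7A and ATP7B, which load secreted enzymes and export copper, and CCS carries it to the superoxide dismutase SOD1. Cisplatin uses parts of this route: CTR1 can take it up, ATOX1 and the pumps can bind it, and metallothioneins, small proteins rich in cysteine that buffer zinc and copper, can hold platinum. In liver, ATP7B moves copper into bile, and the Slc47a1 product MATE1 moves organic cations out of hepatocytes and kidney tubule cells.

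Levels are given in FPKM, in which fragments are divided by transcript length and by the mapped total of the library. Differences were estimated by limma, with SE, on the log2(FPKM + 1) scale, where low genes appear to change less than they do. The 12765 genes averaging 1 FPKM or more across the 12 libraries were tested, with a threshold of 0.05 on the p adjusted by the Benjamini-Hochberg method. The library totals of FPKM ran from 547146 to 660067, and read depth is unknown. Hepatocyte markers (20 genes, among them Alb) held 0.830%, 18.1% and 7.38% of FPKM in Combination replicates 1, 2 and 3, 0.242% to 1.18% in GC, 0.173% to 0.574% in ICB and 0.0870% to 0.159% in Control. None of the 20 was at 0 in Combination or GC, at most 1 in ICB and 1 to 7 in Control. Arg1 had the highest FPKM of the 20 in every ICB and Control library. It stood at 470 to 1036 FPKM in Control, where Alb stood at 2.95 to 35.2 FPKM, so the Control share was largely Arg1. Small intestinal markers (17 genes) held 1.05% in Combination replicate 1 and at most 0.107% in any other library. Skeletal muscle markers (12 genes) held 0.727% in GC replicate 2, 0.250% in Control replicate 2 and at most 0.00219% elsewhere. Of the markers of the labelled tumour type, Spp1 ranged from 276 to 7598 FPKM over the 12 libraries, while the biliary keratin Krt19 was listed at 0 in Control replicates 2 and 3. Of the 10 biliary tumour markers, 2 were at 0 in Control replicate 2 and 4 in Control replicate 3. Sox9, another of them, stood at 54.8 and 43.5 FPKM there and at 7.56 to 42.5 FPKM in Combination.

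Of the 9 genes, 2 passed the test between Combination and Control tumours, the importer Slc31a1 and the exporter Slc47a1, and both were higher in Combination. Between GC and Control and between ICB and Control, none of the 9 passed. The share of all tested genes called higher in Combination than in Control was 3.55%, and 3.95% were called in either direction. Atp7b had a mean under 1 FPKM and was not tested, and Slc47a1 passed that filter only through its Combination libraries, so the count of called genes is a description. Over the 8 tested genes the median difference between Combination and Control was -0.09 against -0.29 over all tested genes, and 3 of the 8 were positive, against 33.0% of all tested genes.

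**Figure D1:**
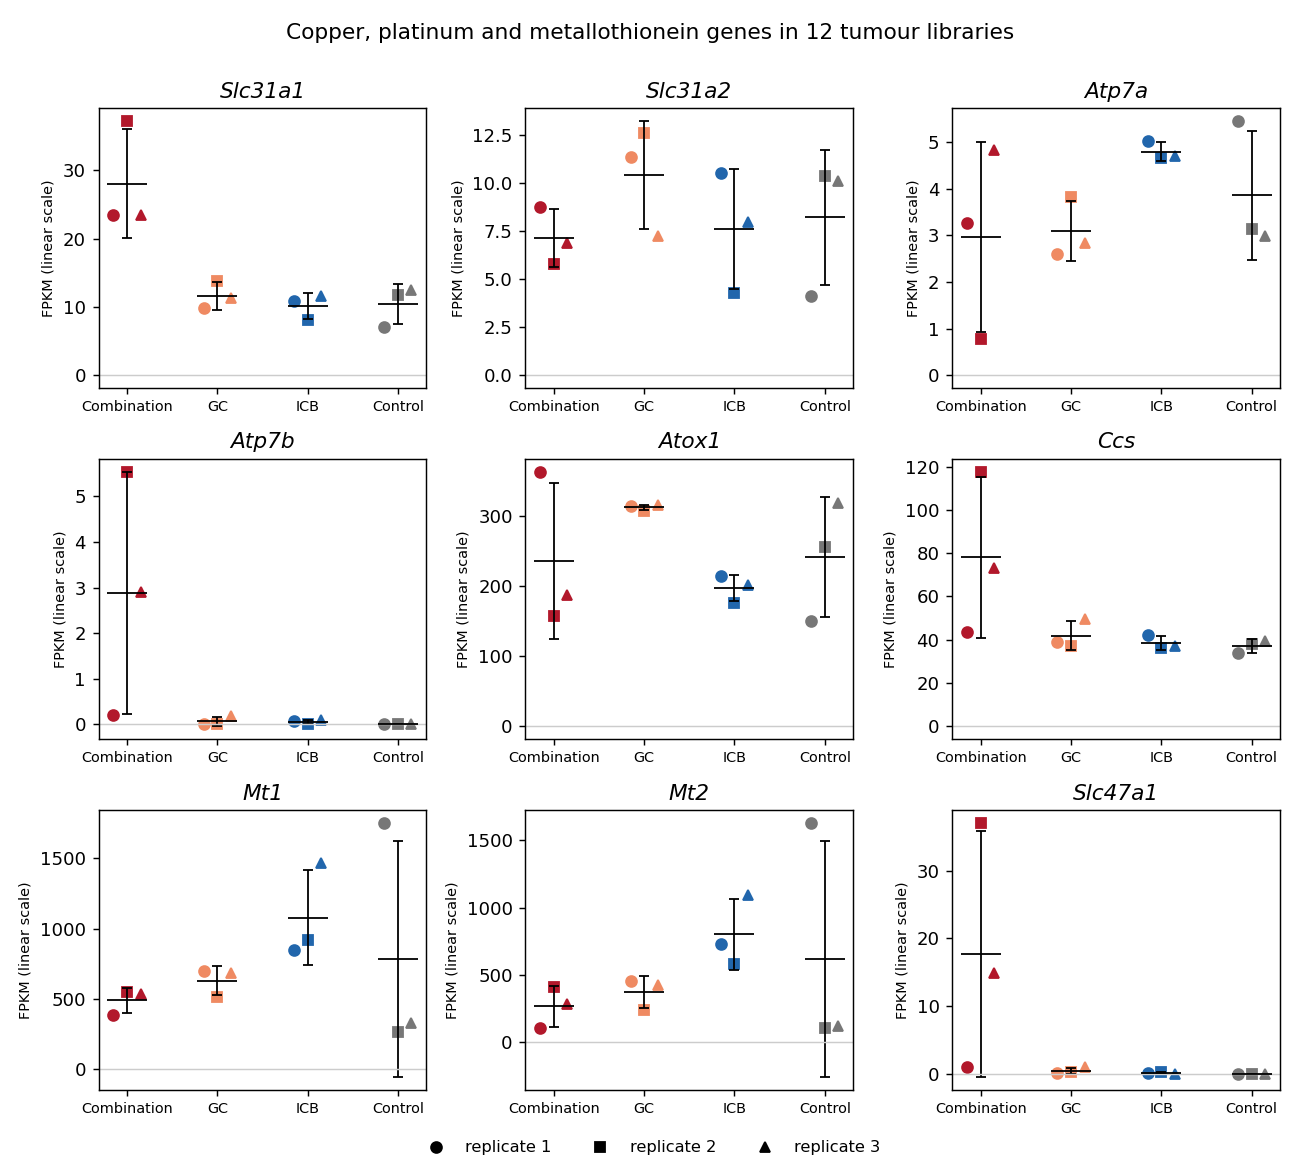
FPKM (linear scale) of each of the 9 genes in Combination, GC, ICB and Control libraries. Symbols mark replicates, and horizontal lines with bars are the mean ± SD of 3 libraries. Slc31a1 lies at 23.5 FPKM or above in every Combination library and at 13.8 FPKM or below in every other library, while Mt1 and Mt2 are split within Control, with replicate 1 far above replicates 2 and 3.

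Slc31a1 encodes CTR1, the importer of copper and cisplatin at the cell surface. It stood at 23.5, 37.2 and 23.5 FPKM in Combination replicates 1, 2 and 3, at 9.81, 13.8 and 11.2 FPKM in GC, at 10.8, 8.01 and 11.5 FPKM in ICB, and at 7.09, 11.7 and 12.5 FPKM in Control. Every Combination library was above every library of the other groups, and the GC, ICB and Control libraries overlapped. The group means were 28.1 ± 7.93 FPKM in Combination, 11.6 ± 2.00 FPKM in GC, 10.1 ± 1.85 FPKM in ICB and 10.4 ± 2.92 FPKM in Control (SD, n = 3 libraries each). Slc31a1 rose in Combination against Control by 1.35 ± 0.28 (95% interval 0.74 to 1.96, limma adjusted p = 0.0210) and in Combination against ICB by 1.37 ± 0.28 (0.76 to 1.98, limma adjusted p = 0.0287), where 2.05% of all genes were called higher. The difference between Combination and GC was 1.19 ± 0.28 (0.57 to 1.80) and did not pass (limma adjusted p = 0.0976). Between GC and Control it was 0.16 ± 0.28 (-0.45 to 0.77, limma adjusted p = 0.912), so a rise of up to 0.77 on this scale is within the interval.

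Among Combination libraries, replicate 1, with 0.830% hepatocyte and 1.05% intestinal markers, had 23.5 FPKM of Slc31a1, and replicate 3, with 7.38% and 0.0347%, also had 23.5 FPKM. The 0.830% included Apoa1 at 3721 FPKM and Alb at 217 FPKM, and the tissue these transcripts came from was not tested. By the mean log2(FPKM + 1) of the 20 hepatocyte markers, Combination replicate 1 stood at 5.02. GC replicates 1, 2 and 3 stood at 5.37, 4.73 and 7.08. GC replicate 3, with 1.18% hepatocyte markers, had 11.2 FPKM. The highest value, 37.2 FPKM, was in Combination replicate 2, which held the most hepatocyte transcripts. Over the 12 libraries, Pearson r between Slc31a1 and the hepatocyte marker mean was 0.70 and Spearman rho 0.36, a description of libraries that share tissue content and scaling. The part of these tissues in the Slc31a1 result was not tested further. In bulk tissue, more cells of a type and more RNA of the gene per cell cannot be told apart. The Combination against Control call was lost without Control replicate 1 (limma adjusted p = 0.0806), Control replicate 2 (0.0574) or Combination replicate 2 (0.0597), without the muscle-rich libraries (0.0960), without both liver-rich Combination libraries (0.162), with only these groups fitted (0.221) and with the hepatocyte marker mean as a covariate (difference 1.12 ± 0.54, limma adjusted p = 0.388). The range of the adjusted p over all alternatives was 0.00942 to 0.388. The call against ICB was lost without any ICB library, GC replicate 3 or Combination replicate 2, with limma adjusted p up to 0.141, and also with median-of-ratios scaling (0.0514) or only these groups fitted (0.215). It was lost as well with the hepatocyte covariate, without the muscle-rich libraries, and without both liver-rich Combination libraries, which leaves only Combination replicate 1.

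Slc31a2 encodes CTR2, a paralogue of CTR1 found mainly on endosomal membranes. It stood at 8.77, 5.78 and 6.90 FPKM in Combination, 11.4, 12.6 and 7.26 FPKM in GC, 10.5, 4.28 and 8.00 FPKM in ICB and 4.14, 10.4 and 10.1 FPKM in Control. All 4 groups overlapped, and the difference between Combination and Control was -0.11 ± 0.38 (-0.93 to 0.72, limma adjusted p = 0.862), with a sign that turned under median-of-ratios scaling. The ratio of Slc31a1 to Slc31a2 FPKM within a library, which no scaling of libraries alters, was 2.68, 6.43 and 3.41 in Combination. It was 0.861 to 1.55 in GC, 1.02 to 1.87 in ICB and 1.13 to 1.71 in Control. The 2 genes, 62315 bases apart on chromosome 4 (GRCm38, GENCODE M21: Slc31a2 from 62262562 to 62298411, Slc31a1 from 62360727 to 62391769), differed unequally between the groups.

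Atox1 encodes the small chaperone that carries copper to the pumps, and it was among the more abundant transcripts, ranking between place 237 and place 475 among all symbols of a library. It stood at 363, 157 and 187 FPKM in Combination, 314, 308 and 315 FPKM in GC, 214, 176 and 201 FPKM in ICB, and 150, 256 and 319 FPKM in Control. The SD of the GC libraries was 4.03 FPKM, whereas Combination replicate 1 lay far above replicates 2 and 3. The order of group means was GC, Control, Combination and ICB, and each neighbouring pair overlapped. All GC libraries were above all ICB libraries, a separation whose share over all tested genes was not computed. The difference was -0.07 ± 0.35 for Combination against Control (limma adjusted p = 0.912), with a sign that turned under median-of-ratios scaling, and 0.44 ± 0.35 for GC against Control (-0.34 to 1.21, limma adjusted p = 0.761).

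Ccs encodes the chaperone that loads copper into SOD1. It stood at 43.5, 117 and 73.3 FPKM in Combination, 38.9, 36.8 and 49.4 FPKM in GC, 42.1, 36.3 and 37.2 FPKM in ICB, and 33.6, 37.8 and 39.5 FPKM in Control. All Combination libraries were above all ICB and Control libraries, and GC replicate 3 lay within the Combination range. Differences were 0.95 ± 0.32 against Control (limma adjusted p = 0.104), 0.89 ± 0.32 against ICB (0.153) and 0.79 ± 0.32 against GC (0.284), and none passed. Without Combination replicate 1, Ccs passed in these 3 comparisons, with limma adjusted p = 0.00336 against Control. Within Combination the order of Ccs (replicate 2, then 3, then 1) was that of the hepatocyte markers. With the hepatocyte marker mean as a covariate the difference from Control was -0.24 ± 0.45. Its client Sod1, named here after its values were seen, had the same order within Combination (1088, 589 and 352 FPKM in replicates 2, 3 and 1) and averaged 311 ± 64.2 FPKM in GC, 278 ± 6.96 FPKM in ICB and 309 ± 60.5 FPKM in Control. Sod1 differed from Control by 0.99 ± 0.37 in Combination and was not called (limma adjusted p = 0.131).

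Atp7a encodes the copper pump of most tissues outside the liver, mutated in Menkes disease. It stood at 3.27, 0.784 and 4.84 FPKM in Combination, 2.60, 3.82 and 2.85 FPKM in GC, 5.03, 4.65 and 4.71 FPKM in ICB, and 5.46, 3.14 and 2.99 FPKM in Control. The lowest value was in Combination replicate 2, the library richest in hepatocyte transcripts, and the groups overlapped except that all ICB libraries were above all GC libraries. The share of all tested genes with that separation was not computed, so it is a description. The difference between Combination and Control was -0.42 ± 0.39 (-1.27 to 0.43, limma adjusted p = 0.474), and without Combination replicate 2 it was 0.074.

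Atp7b encodes the hepatocyte copper pump, mutated in Wilson disease. It stood at 0.208, 5.53 and 2.90 FPKM in Combination replicates 1, 2 and 3, was listed at 0, 0 and 0.180 FPKM in GC and at 0.0684, 0 and 0.0792 FPKM in ICB, and was listed at 0 in all 3 Control libraries. The Combination libraries were above all others, with replicate 1 (0.208 FPKM) close to GC replicate 3 (0.180 FPKM). When all 18672 genes above 0 were tested, Atp7b did not pass between Combination and Control (limma adjusted p = 0.105).

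Slc47a1 encodes MATE1, the exporter of organic cations into bile and urine. It stood at 1.04, 37.1 and 14.9 FPKM in Combination replicates 1, 2 and 3, at 0.110, 0.288 and 0.973 FPKM in GC and at 0.125, 0.201 and 0 FPKM in ICB, and was listed at 0 in all 3 Control libraries. All Combination libraries were above all others, with replicate 1 (1.04 FPKM) close to GC replicate 3 (0.973 FPKM). Slc47a1 was called higher in Combination against Control (limma adjusted p = 0.0365), a description since it passed the filter through Combination alone, and no fold is given against libraries listed at 0. With no filter the call was lost (limma adjusted p = 0.0626). The differences did not pass against ICB (limma adjusted p = 0.0620) or GC (0.165). The call against Control was lost when any single library other than Combination replicate 1 was left out (limma adjusted p from 0.0538 to 0.113), and with the hepatocyte marker mean as a covariate the difference turned to -0.42 ± 0.79 (limma adjusted p = 0.854). Within Combination its order (replicate 2, 3, 1) was that of the hepatocyte markers, and GC replicate 3 was highest in GC for both. The order differed elsewhere. GC replicate 2 was above GC replicate 1 for Slc47a1 but below it in the mean log2(FPKM + 1) of the markers (4.73 against 5.37). ICB replicate 3 had the highest marker mean of ICB (5.07) and Slc47a1 at 0. The part of the hepatocyte markers in the Slc47a1 result was not tested further.

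**Figure D2:**
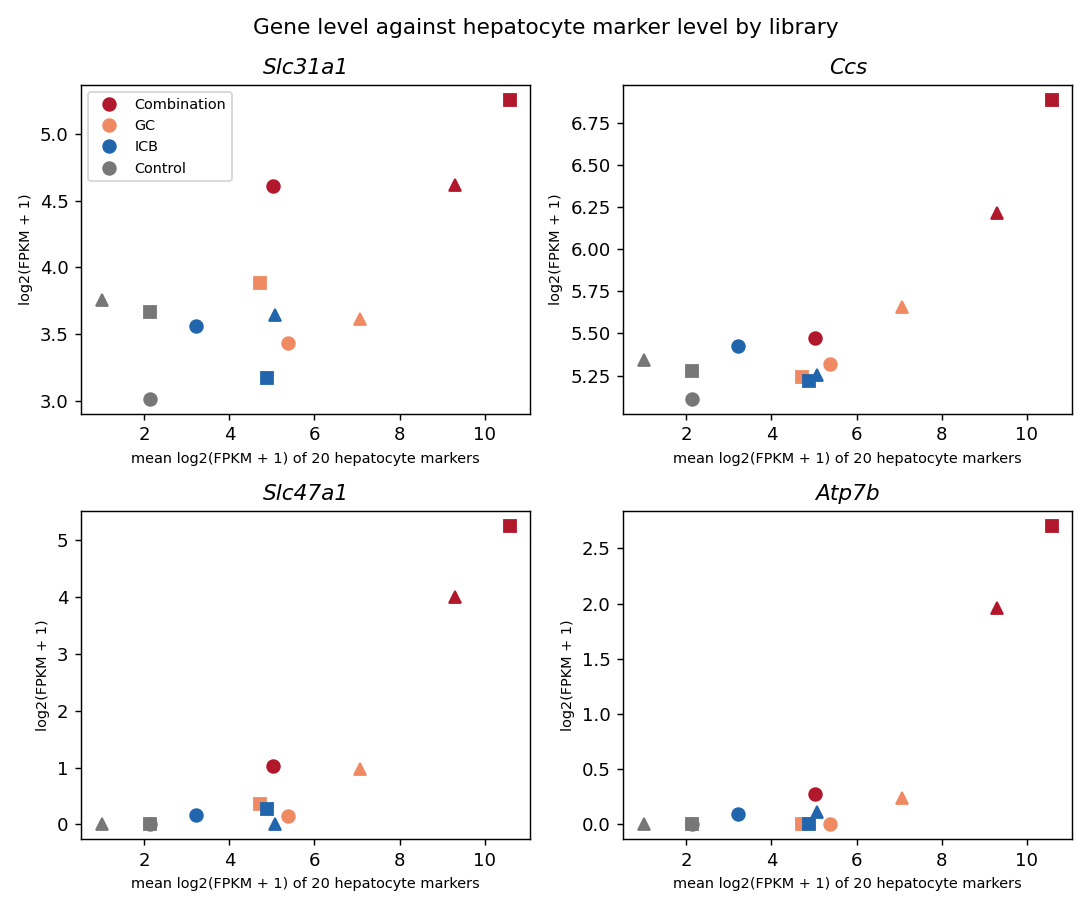
Level of Slc31a1, Ccs, Slc47a1 and Atp7b, each as log2(FPKM + 1), against the mean log2(FPKM + 1) of 20 hepatocyte markers, with 1 point per library coloured by group, with circles, squares and triangles for replicates 1, 2 and 3. Ccs, Slc47a1 and Atp7b are highest in Combination replicates 2 and 3, which lie farthest right. Slc31a1 is highest in Combination replicate 2 and stands at 23.5 FPKM in Combination replicates 1 and 3, whose hepatocyte means are 5.02 and 9.31.

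Mt1 was the most abundant of the 9 transcripts in every library, ranking between place 76 and place 254 among all symbols. Mt2 ranked between place 86 and place 836 and was below Atox1 in Combination replicate 1, GC replicate 2 and Control replicates 2 and 3. Mt1 stood at 385, 547 and 535 FPKM in Combination, 696, 512 and 683 FPKM in GC, 846, 921 and 1464 FPKM in ICB, and 1752, 266 and 331 FPKM in Control. Mt2 stood at 106, 409 and 287 FPKM in Combination, 453, 241 and 428 FPKM in GC, 729, 585 and 1094 FPKM in ICB, and 1629, 105 and 120 FPKM in Control. Control replicate 1 held the highest value of both genes over the 12 libraries, while Control replicate 2 held the lowest. For both genes every Combination library was below every ICB library, a pattern that 10.1% of all tested genes had. Every GC library was also below every ICB library for both, and the share of all tested genes with that separation was not computed. The order of group means was ICB, Control, GC and Combination, with overlap between all neighbours in that order. The place of Control above GC rested on Control replicate 1. The Control medians, 331 FPKM for Mt1 and 120 FPKM for Mt2, were below every GC library.

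**Figure D3:**
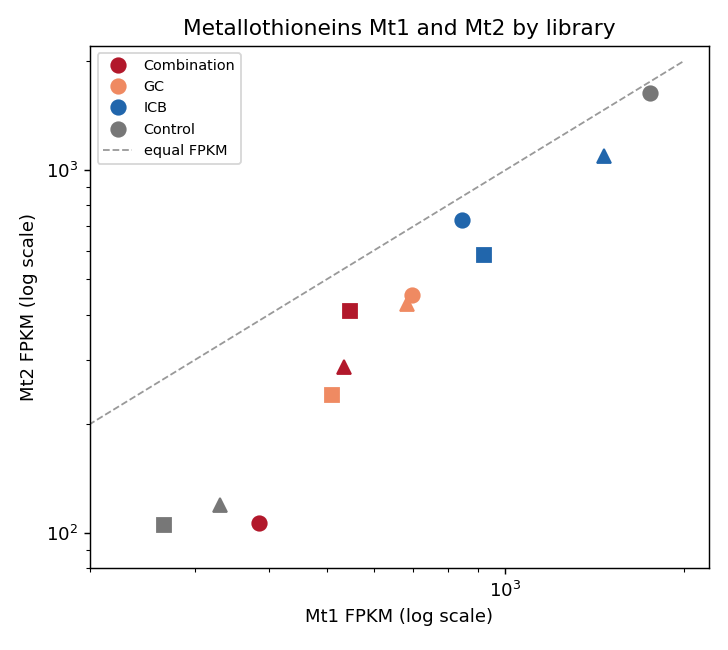
Mt2 FPKM against Mt1 FPKM (both log scales) in 12 libraries, coloured by group, with circles, squares and triangles for replicates 1, 2 and 3 and a dashed line of equal FPKM. The libraries run along 1 rising band from Control replicate 2 (266 and 105 FPKM) to Control replicate 1 (1752 and 1629 FPKM), and all lie below the dashed line.

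No metallothionein difference passed. Against Control, ICB differed by 0.96 ± 0.58 for Mt1 (-0.32 to 2.24) and by 1.50 ± 0.89 for Mt2 (-0.45 to 3.45), with limma adjusted p = 1 for both, and these values became 1.81 and 2.78 without Control replicate 1. Combination differed from Control by -0.15 ± 0.58 for Mt1 and -0.24 ± 0.89 for Mt2 (limma adjusted p = 0.872 and 0.867), with signs that turned under median-of-ratios scaling and without Control replicate 1 or Combination replicate 1. GC differed from Control by 0.22 ± 0.58 for Mt1 and 0.39 ± 0.89 for Mt2 (limma adjusted p = 0.954 and 0.940). Combination differed from ICB by -1.11 ± 0.58 for Mt1 and -1.74 ± 0.89 for Mt2 (limma adjusted p = 0.301 and 0.292). The interaction, the blockade difference with chemotherapy minus that without it, was -1.33 ± 0.82 for Mt1 and -2.13 ± 1.26 for Mt2 (limma adjusted p = 0.668 and 0.657). Control replicate 1 also held fewer macrophage markers (10 genes, 0.0695% of FPKM) than Control replicates 2 and 3 (0.710% and 1.11%), and Krt19 at 18.2 FPKM where those libraries were at 0. The mean log2(FPKM + 1) of the 10 biliary tumour markers was 3.48, 1.98 and 2.05 in Control replicates 1, 2 and 3. Spp1, on that list, went the other way, at 1761, 2456 and 1878 FPKM. The part of these differences in the metallothionein levels was not tested.

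Mt1 and Mt2 moved together over the 12 libraries on the log2 scale (Pearson r = 0.972, permutation p = 1.0e-05, Spearman rho = 0.986, permutation p = 1.0e-05). That p is the smallest that 100000 resamples can give. Correlations were computed for all pairs of the 9 genes, and only this pair was given a p. Without Control replicate 1 and ICB replicate 3, the libraries farthest from the Mt1 median, r was 0.956 (permutation p = 2.0e-05). The permutations ran over all 12 libraries regardless of group, and the libraries share tissue content and scaling. The p therefore does not set the relation apart from differences between groups or libraries. Groups held 3 libraries each, too few for the relation within a group. The genes lie side by side on chromosome 8 (Mt2 from 94172664 to 94173568, Mt1 from 94179082 to 94180327, 5513 bases between them). The longest identical run between their annotated transcripts was 20 bases, and none of the 50-base stretches of the 9 genes' transcripts was found in transcripts of another gene. The ratio of Mt2 to Mt1 FPKM was 0.276, 0.747 and 0.538 in Combination, 0.651, 0.471 and 0.627 in GC, 0.863, 0.635 and 0.747 in ICB, and 0.930, 0.396 and 0.361 in Control.

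Metallothionein genes are induced by metals through the factor MTF1, which binds metal response elements, and their start regions are shown because the pair moved together. The start regions, 250 bases before to 50 bases after the RefSeq start, were held for 7 of the 9 genes (RefSeq, build GRCm38.p6). The cores TGCACNC and TGCGCNC were searched on both strands, and matches are in capitals. Mt1 held 3 matches and Mt2 held 4, without overlap, and the Slc31a1 region, shown as that of the called importer, held 0. The Mt1 matches TGCACTC and TGCGCTC and the Mt2 match GTGCGCA lay after the RefSeq start. Sequence outside these regions was not searched. At least 1 match was present in 25.7% of 32851 regions of this length, at least 3 in 1.97% and at least 4 in 0.517%. Matches numbered 2 in Atp7a, 1 each in Slc31a2 and Atp7b, and 0 in Atox1. The regions are chr8:94178839-94179138 (plus strand) for Mt1, chr8:94172368-94172667 (plus strand) for Mt2 and chr4:62360451-62360750 (plus strand) for Slc31a1.
Mt1: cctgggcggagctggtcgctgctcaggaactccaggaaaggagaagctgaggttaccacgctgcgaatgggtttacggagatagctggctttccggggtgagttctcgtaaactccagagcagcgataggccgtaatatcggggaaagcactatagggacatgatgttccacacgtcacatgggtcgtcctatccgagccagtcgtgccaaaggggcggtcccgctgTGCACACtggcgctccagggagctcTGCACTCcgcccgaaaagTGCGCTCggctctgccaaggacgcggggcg
Mt2: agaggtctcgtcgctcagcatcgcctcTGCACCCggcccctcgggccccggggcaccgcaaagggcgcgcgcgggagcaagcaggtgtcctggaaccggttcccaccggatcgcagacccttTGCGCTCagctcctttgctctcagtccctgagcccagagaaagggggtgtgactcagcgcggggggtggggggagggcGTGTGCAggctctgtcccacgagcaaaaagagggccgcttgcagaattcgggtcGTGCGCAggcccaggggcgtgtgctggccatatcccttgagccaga
Slc31a1: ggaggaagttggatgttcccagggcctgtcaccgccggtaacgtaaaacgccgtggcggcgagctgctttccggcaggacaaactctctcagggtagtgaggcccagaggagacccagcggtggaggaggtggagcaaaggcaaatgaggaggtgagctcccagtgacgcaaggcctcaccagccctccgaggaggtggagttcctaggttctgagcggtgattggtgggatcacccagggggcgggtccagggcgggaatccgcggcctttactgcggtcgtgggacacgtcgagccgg

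The groups given chemotherapy, Combination and GC, were also set together against those without it, ICB and Control. The pooled difference was 0.77 ± 0.20 for Slc31a1 (0.33 to 1.20, limma adjusted p = 0.0600), 0.53 ± 0.22 for Ccs (limma adjusted p = 0.196) and 1.89 ± 0.56 for Slc47a1 (limma adjusted p = 0.0915), and none of the 9 passed, against 3.36% of all tested genes. In a two-sided exact permutation test within blockade status (400 relabellings, smallest possible p = 0.005), the unadjusted p was 0.035 for Slc31a1 and Ccs, 0.005 for Slc47a1, 0.05 for Atp7b and 0.095 to 0.55 for the other 5. For Slc47a1 and Atp7b these p are descriptions only. Slc47a1 passed the filter on low values through Combination alone, Atp7b did not pass it, and both were listed at 0 in every Control library. The pooled value of Slc31a1 rested on unequal parts, 1.37 with blockade and 0.16 without, and the interaction was 1.21 ± 0.39 (0.34 to 2.07, limma adjusted p = 0.476).

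**Figure D4:**
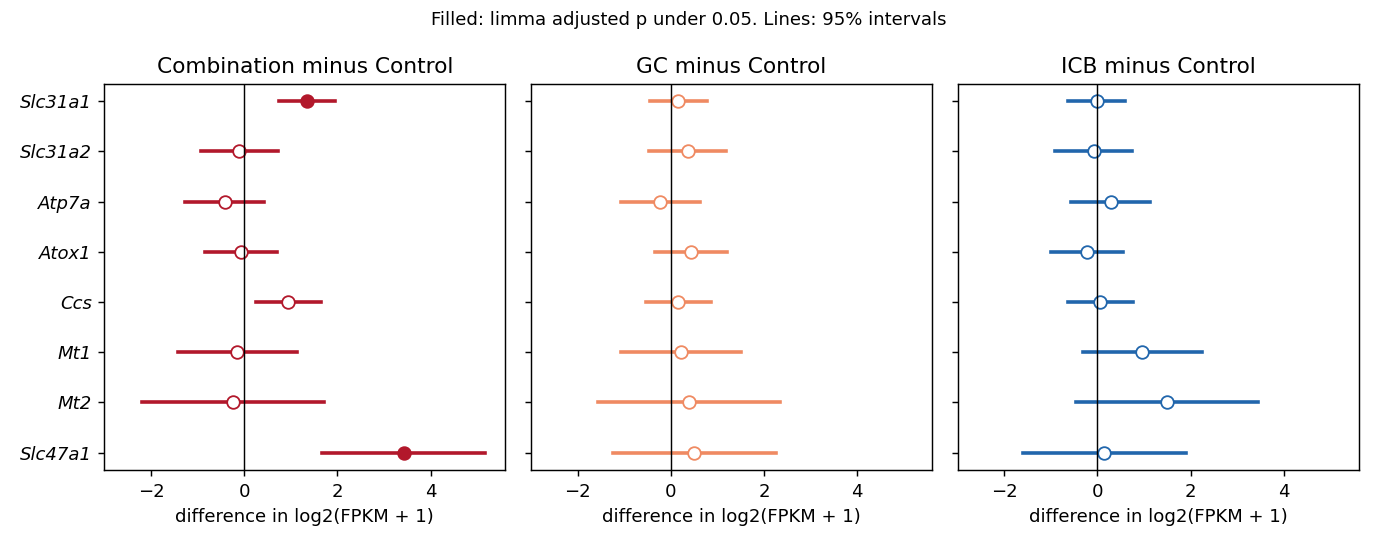
Difference in log2(FPKM + 1) of the 8 tested genes in Combination, GC and ICB against Control, with lines for 95% intervals and filled circles for limma adjusted p under 0.05. Filled circles mark Slc31a1 (1.35) and Slc47a1 (3.42, against libraries listed at 0) in Combination, and no circle is filled in GC or ICB.

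Counted by group comparison, the groups did not overlap for 3 genes, all higher, in Combination against Control (9.74% of all tested genes higher), for 2, both higher, against GC (4.16%) and for 3 higher and 2 lower against ICB (9.47% higher and 10.1% lower). In GC against Control 1 gene, Slc47a1, did not overlap (18.6% of all tested genes higher), and in ICB against Control all 8 overlapped (4.65% of all tested genes did not and were higher, 4.67% lower). The share of all tested genes called was 0.00783% in GC against Control, 0 in ICB against Control, 0.666% in Combination against GC, 2.24% in Combination against ICB and 0.0157% for the interaction. At an unadjusted limma p under 0.05, 0 of the 8 were found in GC against Control (9.86% of all tested genes) and 0 in ICB against Control (1.75%), and 3 each in Combination against Control (26.3%), GC (16.5%) and ICB (20.5%). For pooled chemotherapy 3 were found (22.3%), and for the interaction 2 (8.09%). Slc47a1 was in every count of higher genes and in every unadjusted count above 0 here. It passed the filter on low values only through its Combination libraries, so these counts are descriptions. In GC it stood at 0.110 to 0.973 FPKM, near the floor.

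Around these genes, 3 wider lists were counted. Among 25 other genes of copper handling (22 tested), 1 was called higher and 0 lower in Combination against Control, where 3.55% of all tested genes were called higher. A count of 1 in a list of this size, here and for the zinc transporters, is near that share. The gene was Slc46a3, a lysosomal transporter linked to copper in mouse liver, at 5.85, 13.3 and 9.07 FPKM in Combination replicates 1, 2 and 3, and on average 9.41 ± 3.73 FPKM in Combination, 1.96 ± 0.808 FPKM in GC, 0.846 ± 0.505 FPKM in ICB and 0.748 ± 0.437 FPKM in Control, a difference of 2.54 ± 0.36 (limma adjusted p = 0.00246). It was also called against ICB (2.47 ± 0.36, limma adjusted p = 0.00486). Among 21 other carriers of platinum and organic cations (17 tested), the canalicular export pump Abcc2 was among those called higher, and 0 were called lower. Abcc2 stood at 3.93, 35.0 and 25.0 FPKM in Combination, 0.824, 0.122 and 1.70 FPKM in GC and 0.143, 0.378 and 0.535 FPKM in ICB, and was listed at 0 in Control (limma adjusted p = 0.00376). Like Slc47a1, Abcc2 passed the filter on low values only through its Combination libraries, so its calls are a description. Among 24 zinc transporters (18 tested), 1 was called higher and 0 lower, Slc39a4, the zinc importer of the gut, at 10.4, 23.3 and 11.2 FPKM in Combination, 1.59, 0.751 and 4.60 FPKM in GC, 0.273, 0.433 and 1.64 FPKM in ICB and 0.156, 0 and 0 FPKM in Control (3.84 ± 0.46, limma adjusted p = 8.85e-04). Abcc2 and Slc39a4 were also called higher in Combination against GC (limma adjusted p = 0.0442 and 0.0470) and against ICB (0.0105 and 0.00486). In GC against Control and in ICB against Control no gene of the 3 lists passed. Median differences in Combination against Control were 0.11, 0.083 and -0.037 in the 3 lists, against -0.29 over all tested genes. Slc46a3, Abcc2 and Slc39a4 were highest in Combination replicate 2, the library with the most hepatocyte transcripts. Combination replicate 1, with Slc39a4 at 10.4 FPKM, held the most intestinal markers (1.05%). Replicate 3, with Slc39a4 at 11.2 FPKM, held 0.0347%. Slc46a3 and Abcc2 were lower in replicate 1 than in replicate 3. The part of either tissue in these values was not tested.

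Likeness of pattern was described by the Pearson r of log2(FPKM + 1) over the 12 libraries, which share tissue content and scaling. For Slc31a1 the closest of the tested genes were the fatty acid transporter gene Cd36 (r = 0.971), Mmp15 (0.968), the malate dehydrogenase gene Mdh1 (0.957), the isocitrate dehydrogenase gene Idh1 (0.953) and Fhit (0.953). For Slc47a1 they were A1cf, Cps1, Rdh16, Cyp2c54 and Ces1e (r from 0.994 to 0.997), among them Cps1, the urea cycle enzyme that marks hepatocytes. For Ccs they were Fam35a, Adk, Acnat1, Colec10 and Amacr (0.983 to 0.988). For Atox1 they were Gemin6 and the mitochondrial genes Mrpl20, Chchd4, Mrpl17 and Mrps11 (0.970 to 0.978). Mt1 and Mt2 were each other's closest gene, followed for both by the kinase gene Sik1 (0.903 and 0.915), and both lists held the retinoic acid hydroxylase gene Cyp26b1. The closest genes of Slc31a2 were Zfp110, Tnfrsf11a, Wdr44, Pigq and Rbm4 (0.932 to 0.961). Those of Atp7a were Pde1b, 4930404I05Rik, Mir7014, Nfkbiz and Ccnl1 (0.920 to 0.941).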

How the data were processed

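Tumour RNA was extracted, and stranded libraries were prepared, using kits from Qiagen, per the labels' protocols. The values used were the FPKM the authors deposited, with a row for each symbol and a column for each of 12 libraries. HISAT2, HTSeq, SAMtools, cutadapt and FastQC are named with mm10, unversioned, per the submitters' processing notes, and neither the step that made FPKM nor strand use in counting is given. Whole-read steps were sought in values up to 0.1 FPKM over 66 pairs of libraries. The fullest bin of log2 ratios held at most 17.3% of genes, so reads could not be recovered and no count model was used.

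Groups came from the titles. The log2(FPKM + 1) values went into limma 3.58.1 under R 4.3.3, with all 4 groups fitted together (8 residual degrees of freedom), an intensity trend and Benjamini-Hochberg adjustment over the 12765 genes averaging 1 FPKM or more. The step was tested on simulated data. The genes, lists and tests were chosen with earlier results of these data known. The 9 genes and called list members (at most 4 per list) were named, except 1 that is not reported here, with the 5 genes of highest Pearson r per tested gene. Alternatives were another pseudocount (0.1), other filters (none, 10 FPKM), scalings, fits, a replicate block, a hepatocyte covariate and leaving out each library. Leaving out the 2 liver-rich Combination libraries, or the muscle-rich Control and GC libraries, was added after seeing the data.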

Additional observations from a re-analysis of the deposited data

How the results depend on the processing

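In Combination against Control 2 of the 9 genes were called, and 1 was called with no filter, with a mean of at least 10 FPKM or with median-of-ratios scaling (Slc31a1 in each). The number was 0 with only the groups compared fitted, with the hepatocyte covariate, without the 2 liver-rich Combination libraries or without the muscle-rich pair, and 0 to 3 without 1 library. In Combination against ICB it was 1, and 2 with a pseudocount of 0.1, 0 with median-of-ratios scaling, pairwise fits, the covariate or without either of those pairs of libraries, and 0 to 3 without 1 library. In Combination against GC it was 0, and 0 to 3 without 1 library. For pooled chemotherapy it was 0, but 1 with a pseudocount of 0.1, quantile normalization or without the 2 liver-rich libraries, and 0 to 3 without 1 library. For the interaction it was 0, but 1 (Slc47a1) with the covariate, and 0 to 1 without 1 library. In each of these 5 ranges the highest number came from leaving out Combination replicate 1. In GC or ICB against Control it was 0 under every alternative run.

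Differences between Combination and Control that turned sign were uncalled except Slc47a1. With median-of-ratios scaling, which moved the median of all tested genes from -0.29 to 0.0068, they were 0.22 for Slc31a2, 0.29 for Atox1, 0.21 for Mt1 and 0.12 for Mt2. With the covariate they were 0.94 for Slc31a2, 0.31 for Atp7a, 1.19 for Atox1, -0.24 for Ccs and -0.42 for Slc47a1, and for pooled chemotherapy -0.19 for Ccs and -0.43 for Slc47a1. Slc31a2 and Atox1 came to 0.17 and 0.65 without the 2 liver-rich libraries, and to 0.091 and 0.010 without the muscle-rich pair. Without 1 library the ranges were -0.48 to 0.091 for Slc31a2, -0.78 to 0.074 for Atp7a, -0.42 to 0.18 for Atox1, -0.66 to 0.70 for Mt1, -0.93 to 1.04 for Mt2, and -0.068 to 0.30 for Slc31a1 in GC against Control. The cause was not tested.

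Over all genes, 453 were called higher and 51 lower in Combination against Control, 447 and 411 with quantile normalization, and 94 to 3167 in all over the alternatives, with 3167 without Combination replicate 1. Libraries with the same replicate number in their titles deviated together in 8 of 18 pairs (correlation over 0.1), and differently numbered ones in 13 of 36, so the title numbers were not taken to pair the samples. The table's column names number some of the samples otherwise, and pairing by those numbers was not tested. With the title number as the replicate block, the genes called numbered 2 against Control and 1 against ICB in Combination, and 0 elsewhere, so no call changed.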

Other observations

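The other metallothionein genes were near the floor: Mt3 reached at most 1.72 FPKM (ICB replicate 3) and Mt4 at most 1.84 FPKM (ICB replicate 3), and Mt4 was listed at 0 in 10 of 12 libraries. Mtf1, the metal-responsive transcription factor of the metallothioneins, averaged 3.00 ± 0.604 FPKM in Combination, 3.79 ± 0.889 FPKM in GC, 2.44 ± 0.572 FPKM in ICB and 2.69 ± 0.210 FPKM in Control (SD, n = 3 libraries each). The sum of Mt1 and Mt2 ran from 371 FPKM in Control replicate 2 to 3381 FPKM in Control replicate 1, and these libraries carry the same label.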
